A study of Acorus calamus with 8 samples.

Results

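Rhizome was set against leaf at 4 days in sweet flag (Acorus calamus), a wetland monocot with a fragrant rhizome. The comparison uses the 4 libraries taken at 4 days, of 8 libraries in the series, as 2 matched pairs: rhizome and leaf of cut explants, and rhizome and leaf of uncut explants. Of 24636 assembled features named in any library, 35 ribosomal RNA features were removed, and features were then read with their expected counts. A feature was singled out as higher or lower when it moved the same way in both pairs and held at least 50 counts in 1 of the 4 libraries. Of 4504 features with that many counts, 916 (20.3%) were higher in rhizome in both pairs and 1964 (43.6%) lower in both. With TMM, the scaling described below, their median log2 ratio was -0.0557 in the cut pair and -0.587 in the uncut pair. With plain library totals it was 0.952 and 0.027, so the balance of higher and lower depends on the scaling. In uncut rhizome only 1632 features reached 10 counts, so many of these directions rest on few counts there. Where members of a list or family are counted as having risen or fallen, every feature that passed the test counts, also those under 50 counts.

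Explants were cultured on MS (Murashige and Skoog) medium with the synthetic auxins 2,4-D at 2 mg/l and NAA at 0.5 mg/l, which all groups received. In cut explants the leaves had been shortened, and in uncut explants they had not. Times were counted from the cutting for both. Cut rhizome, uncut rhizome, cut leaf and uncut leaf at 4 days are 1 library each, the same 4 combinations at a month make up the rest, and nothing in the labels says how many plants went into a library. The labels allow either selection by oligo dT or removal of ribosomal RNA, and do not say which applies to a given library.

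A rhizome is a horizontal stem that grows at or under the surface of the soil, stores starch, proteins and lectins, and carries the buds from which new shoots arise. A leaf blade is the main site of photosynthesis: light-harvesting complexes and the photosystems capture light, and the Calvin cycle, with Rubisco as its entry enzyme, fixes carbon dioxide in the chloroplast stroma. Growth of either organ needs the wall to yield, through expansins and enzymes that act on xyloglucan and pectin, and needs new structural proteins in the wall.

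The uncut rhizome library stands apart in depth. It held 146449 counts outside ribosomal RNA, against 1077693 in cut rhizome, 2220773 in cut leaf and 2126274 in uncut leaf. Ribosomal RNA took 97.87% of its counts and 89.43% of those of cut rhizome, against 82.29% in cut leaf and 77.23% in uncut leaf, with exact Clopper-Pearson 95% intervals, which cover counting error only, no wider than the 77.20% to 77.26% of uncut leaf. In uncut rhizome 208 features reached 50 counts and 1632 reached 10, against 2795 and 8952 in cut rhizome, 3025 and 9220 in cut leaf, and 2928 and 9591 in uncut leaf. Values below are CPM, counts set to a common library size by TMM, a scaling on the middle of all features. In uncut rhizome 1 count is worth 4.58 CPM and the floor of 3 counts 13.7 CPM, against a floor of 2.08 CPM in cut rhizome, 2.03 in cut leaf and 2.01 in uncut leaf. A leaf feature therefore needed 83 counts in uncut leaf for a 4-fold lower level in uncut rhizome to be visible, and 13 counts in cut leaf for cut rhizome. Unigene19161, a feature of 310 bases described only as a hypothetical protein, took 25.2% of the counts outside ribosomal RNA in cut rhizome and 35.3% in uncut rhizome, against 13.8% in cut leaf and 9.22% in uncut leaf.

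Between the organs, more features passed the test as lower in rhizome than as higher when libraries were scaled by TMM, and the reverse held with plain library totals. By edgeR's quasi-likelihood test with Benjamini-Hochberg adjustment, 606 of 11815 features tested passed 0.05, or 5.13%: 120 (1.02%) were higher in rhizome and 486 (4.11%) lower, and 1582 had an unadjusted p under 0.05. Of these calls, 64 higher and 450 lower also moved alike in both pairs with at least 50 counts. By size alone, with no test, 309 of 4504 features (6.86%) differed at least 4-fold the same way in both pairs, 43 higher (0.955%) and 266 lower (5.91%), and 302 of the 309 also passed edgeR. Read by itself, the cut pair held 98 features at least 4-fold higher (2.18%) and 472 lower (10.5%), and the uncut pair 235 higher (5.22%) and 640 lower (14.2%). The smaller of the pair folds was 4.02 at CL2029.Contig1, a nicotinamidase, just inside the size limit and 3.99 at Unigene7265, an alkenal reductase, just outside it on the higher side. On the lower side it was 4.03 at CL404.Contig4, a sulfur deficiency-induced protein, and 4.00 at CL1262.Contig1, a chloroplast import protein.

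The split between higher and lower rests on the scaling. With plain library totals in place of TMM, log2 changes moved up by a median of 1.04, and edgeR called 588 features higher and 177 lower; the size rule then held 154 higher and 95 lower. Changes below are therefore relative to the middle of all features, whose median log2 change was -0.21 with TMM and 0.80 with plain totals. Without the uncut 4-day pair 445 features passed, 80 of them higher, and without the cut 4-day pair 1060, 252 of them higher. With 1 library in each group, the pairs stand in for replicates. The p-values rest on a spread drawn from all features and from the pairs at both times, and show nothing wider than these pairs. In whole-organ RNA, fewer cells of a type and less RNA per cell cannot be told apart.

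**Figure D1:**
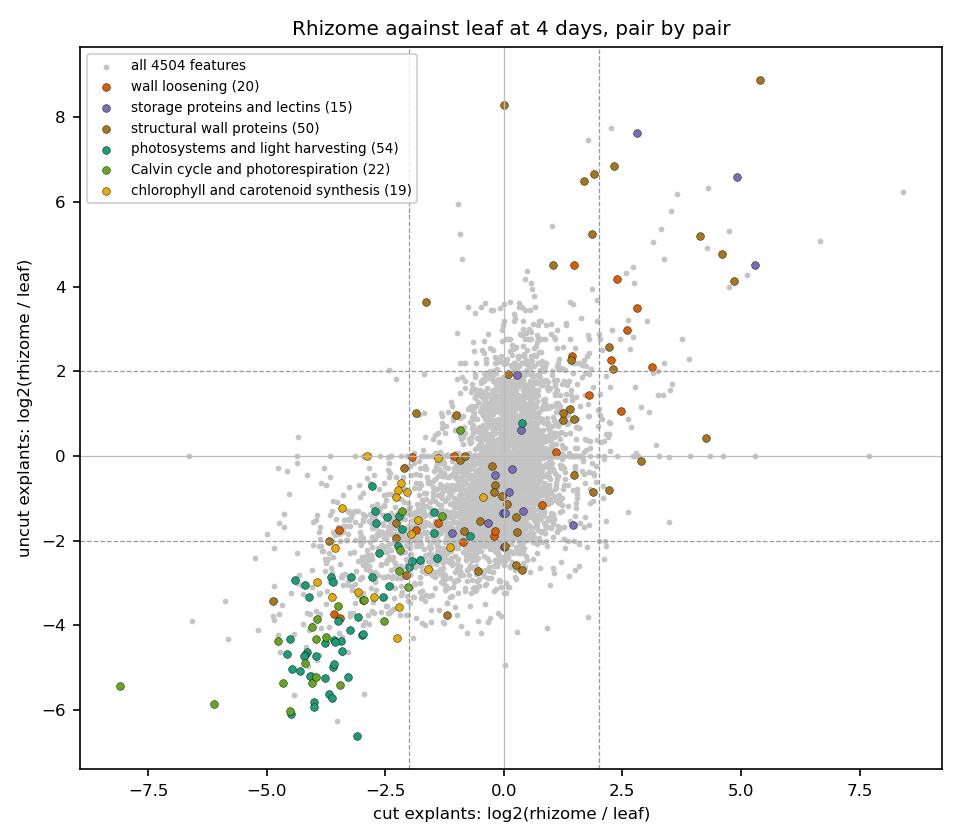
Each grey point is 1 of 4504 features, with the log2 ratio of rhizome to leaf in cut explants on the x axis and in uncut explants on the y axis, and dashed lines at 4-fold. Coloured points are 6 lists: members of the photosystem, Calvin cycle and chlorophyll lists lie at the lower left, and wall and lectin features reach the upper right. The many points on the horizontal zero line are features too low in the uncut pair to show a direction.

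Photosynthesis made up the largest block of features lower in rhizome. Of 266 features at least 4-fold lower in both pairs, 149 carry a description that places the protein in the chloroplast, against 586 of the 4504 features, and none of the 43 higher features does. Counted separately, 13 of the 266, and none of the 43, are transcripts of the organelles themselves. These 13 can overlap the 149, since the descriptions were not split by class. Such transcripts are 259 of all 24636 features, and their number among the 4504 was not counted. Of 59 tested members of the photosystem and light-harvesting list, 45 fell and 0 rose, with a median log2 change of -3.90 against -0.21 over all features. Of 31 tested members of the Calvin cycle and photorespiration list 19 fell and 0 rose (median -3.12), and of 30 tested members of chlorophyll and carotenoid synthesis 11 fell and 0 rose (median -2.31). Over all features tested 4.11% fell and 1.02% rose. With plain totals 35, 16 and 6 members of the 3 lists fell and none rose. Without the uncut 4-day pair 41, 18 and 11 members fell.

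Rubisco small chain, the nuclear-encoded part of the carbon-fixing enzyme, was far lower in rhizome. Its 5 features held 777 and 782 CPM in cut and uncut rhizome, against 13360 and 21880 in cut and uncut leaf, so both rhizome libraries held signal and both lay below both leaf libraries. Of these 5, 4 fell. Unigene10191, the small chain feature that differed most between the pairs, had 2.77 and 101 CPM in cut and uncut rhizome, against 761 and 4366 CPM in cut and uncut leaf, and fell by 6.54 ± 0.74 on the log2 scale (SE; edgeR adjusted p = 4.11e-15). That is 4 counts in cut rhizome and 22 in uncut rhizome, so the rhizome libraries differed from each other while both stayed below leaf. Rubisco activase, which frees the enzyme from tightly bound sugar phosphates, followed. CL1693.Contig2 had 11.8 and 32.0 CPM in cut and uncut rhizome, against 814 and 1860 CPM in cut and uncut leaf, and fell by 5.99 ± 0.72 (edgeR adjusted p = 4.27e-13). Contigs of 1 cluster share reads, and the call of the other contig, CL1693.Contig1, was lost without the cut 4-day pair (edgeR adjusted p = 0.38).

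Other Calvin cycle enzymes behaved alike. Phosphoribulokinase (CL2066.Contig3) makes the sugar that Rubisco carboxylates. It had 6.23 and 0 CPM in cut and uncut rhizome, against 170 and 283 CPM in cut and uncut leaf. With its 0 counts taken as the floor of 3, uncut rhizome lay 20.6-fold lower than uncut leaf. The chloroplast glyceraldehyde-3-phosphate dehydrogenase GAPA1, which takes up the reducing power of the light reactions, had 41.5 and 4.58 CPM in rhizome, against 889 and 682 CPM in leaf (CL2166.Contig2), and fell by 5.18 ± 0.72 (edgeR adjusted p = 6.62e-10). Uncut rhizome holds 1 count of it. Chloroplast aldolase 2 (Unigene8132) fell by 4.52 ± 0.66, with 45.0 and 59.5 CPM in cut and uncut rhizome, against 793 and 1859 CPM in cut and uncut leaf. Chloroplast phosphoglycerate kinase (CL1756.Contig2) fell by 4.10 ± 0.70, with 30.5 and 13.7 CPM in rhizome, against 524 and 236 CPM in leaf. The glycolysis and fermentation list, which mixes cytosolic and chloroplast enzymes, differed less. Of its 51 tested members 2 rose (3.92%, beside 1.02% of all features) and 3 fell (5.88%, beside 4.11%), and the median was 0.55. Both that rose are alcohol dehydrogenase features. Chloroplast aldolase 2 and phosphoglycerate kinase, which fall into the list by name, are among the 3 that fell.

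The light reactions were low in rhizome from antenna to electron acceptor. Chlorophyll a-b binding proteins, the antennae of both photosystems, summed to 962 and 448 CPM over 28 features in cut and uncut rhizome, against 12110 and 16960 CPM in cut and uncut leaf, and 17 of 19 tested fell. Photosystem I subunits summed to 163 and 197 CPM in rhizome, against 1703 and 3765 CPM in leaf, and 10 of 11 tested fell. Photosystem II proteins summed to 92.8 and 151 CPM in rhizome, against 1353 and 2972 CPM in leaf, and 6 of 9 tested fell. These family counts were drawn up after values had been seen. In each of these families both rhizome libraries lay under both leaf libraries, and uncut leaf was above cut leaf.

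Single members gave the same picture. Photosystem I subunit N, which sits on the lumen side where plastocyanin docks, had 12.5 and 32.0 CPM in cut and uncut rhizome, against 275 and 1043 CPM in cut and uncut leaf (CL2427.Contig2), and fell by 4.71 ± 0.69 (edgeR adjusted p = 4.77e-09). Subunit VI-2 of photosystem I (Unigene2412) had 10.4 and 0 CPM in rhizome, against 249 and 347 CPM in leaf, and its call was lost without the cut 4-day pair (edgeR adjusted p = 0.0621). The antenna protein CP29.1 (CL1161.Contig2), which links the outer antenna to photosystem II, fell by 4.92 ± 0.72, with 27.7 and 4.58 CPM in rhizome, against 542 and 466 CPM in leaf. Antenna proteins carry light energy to the reaction centres. Chlorophyll a-b binding protein 7 (Unigene4841), of photosystem I, fell by 4.43 ± 0.68. The 22 kDa protein of photosystem II (Unigene4884), which sheds excess light energy as heat, fell by 4.77 ± 0.73, with 13.9 and 4.58 CPM in rhizome, against 256 and 362 CPM in leaf. Ferredoxin-NADP reductase (CL2368.Contig2), the last step of electron flow, fell by 4.52 ± 0.76, with 4.85 and 13.7 CPM in rhizome, against 132 and 256 CPM in leaf.

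Chlorophyll synthesis was lower at several steps. Chlorophyllide a oxygenase, which makes chlorophyll b, had 4.15 and 0 CPM in cut and uncut rhizome, against 51.5 and 137 CPM in cut and uncut leaf (Unigene5796), and fell by 4.36 ± 0.87 (edgeR adjusted p = 5.18e-05). Protochlorophyllide reductase, the light-dependent step, had 8.31 and 9.15 CPM in rhizome, against 128 and 108 CPM in leaf (CL902.Contig1), and fell by 3.80 ± 0.79 (edgeR adjusted p = 0.00011). A pair of nitrogen enzymes of the plastid also fell. The leaf isozyme of glutamine synthetase (Unigene10394) takes up ammonium released by photorespiration. It had 15.2 and 0 CPM in rhizome, against 330 and 254 CPM in leaf. With the 0 counts of this enzyme taken as the floor of 3, uncut rhizome lay 18.5-fold lower than uncut leaf. Its partner enzyme, ferredoxin-dependent glutamate synthase (Unigene1236), had 85.2 and 22.9 CPM in rhizome, against 587 and 289 CPM in leaf, and fell by 3.13 ± 0.65. Both are among 21 tested members of the nitrogen list, of which 2 fell (9.52%, beside 4.11% of all features) and 0 rose, with a median of -0.18.

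**Figure D2:**
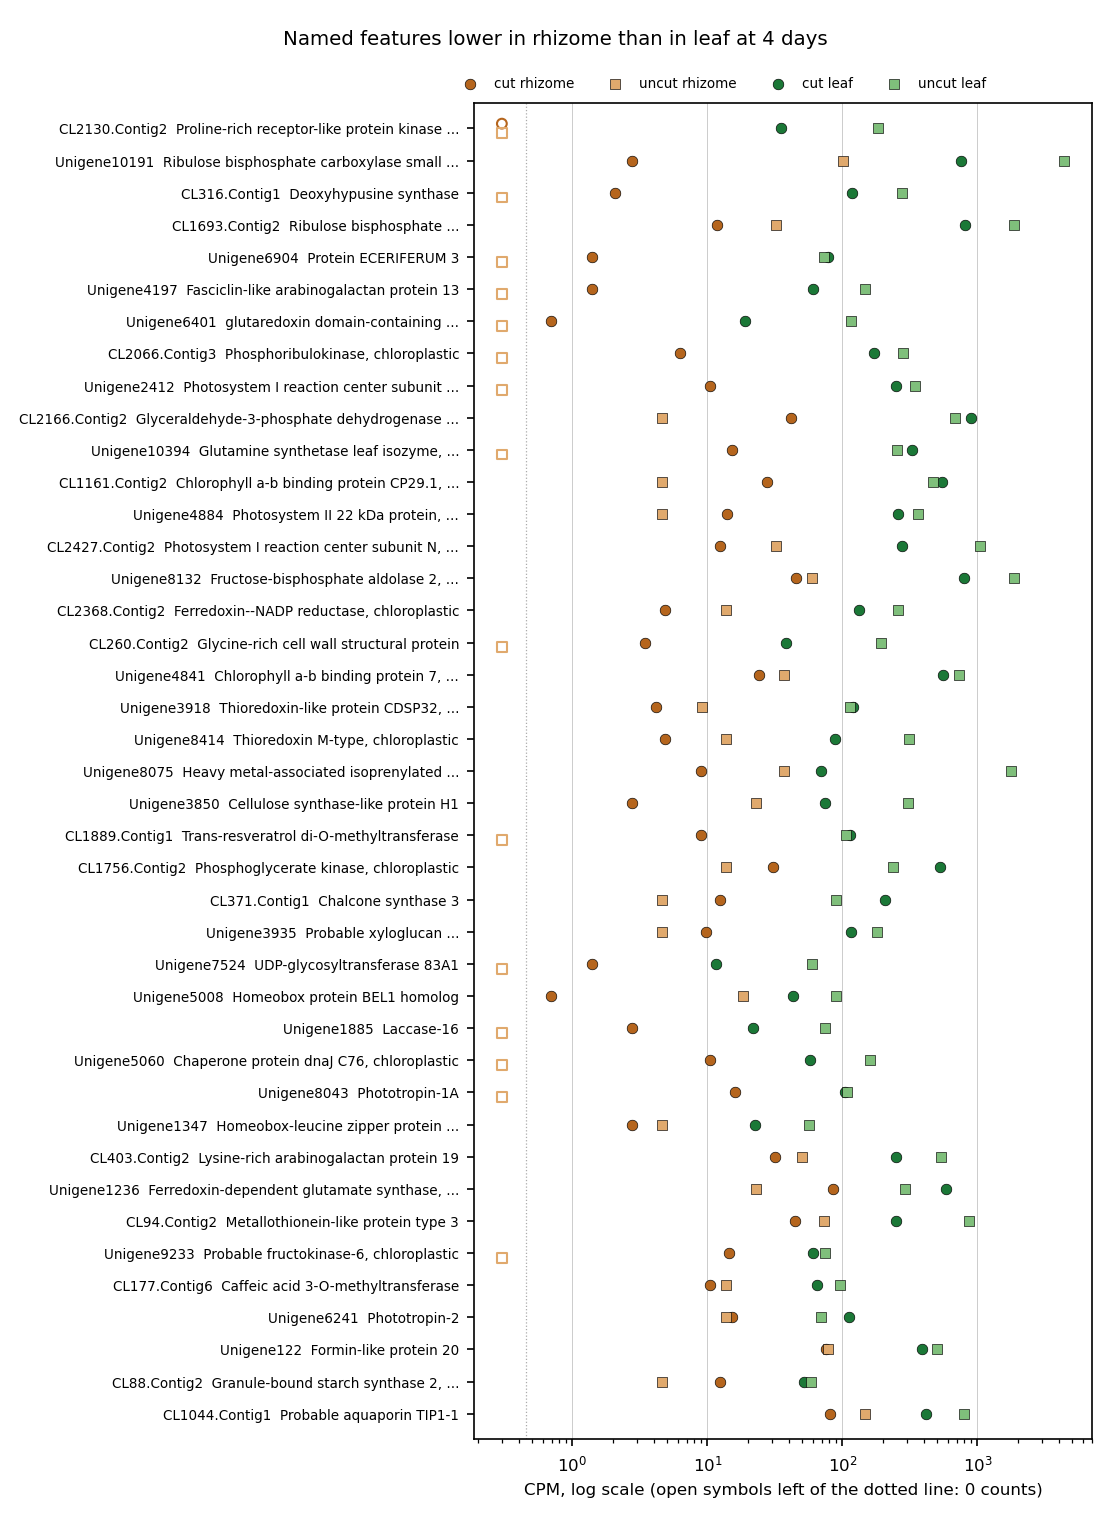
CPM on a log x axis of named features lower in rhizome, 1 row per feature ordered by log2 change, with brown symbols for rhizome and green for leaf, circles for cut and squares for uncut explants. In every row both brown symbols lie left of both green ones, and open symbols at the left mark 0 counts, which fall in uncut rhizome except for CL2130.Contig2, where both rhizome libraries are at 0.

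Some redox proteins of the chloroplast fell as well. Of 98 tested members of the antioxidant and redox list 11 fell and 3 rose (median -0.59); without the uncut 4-day pair 8 fell, and with plain totals 4 fell and 8 rose. By share, 11.2% of the list fell and 3.06% rose with TMM and all pairs, beside 4.11% and 1.02% of all features. Among the 11 members that fell, 7 are thioredoxins, glutaredoxins or peroxiredoxins whose description names the chloroplast, of 24 such features tested. Thioredoxin M (Unigene8414), which switches chloroplast enzymes on in light, had 4.85 and 13.7 CPM in cut and uncut rhizome, against 87.5 and 311 CPM in cut and uncut leaf, and fell by 4.29 ± 0.75 (edgeR adjusted p = 1.55e-06). The drought-induced chloroplast thioredoxin CDSP32 (Unigene3918) had 4.15 and 9.15 CPM in rhizome, against 119 and 114 CPM in leaf. On the other side, Unigene2519 had 81.0 and 146 CPM in rhizome, against 13.6 and 7.36 CPM in leaf, a rise of 3.37 ± 0.75. It matches glutathione S-transferase U9 in SwissProt but a beta-galactosidase in Nr, so its function is uncertain.

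Several genes of the leaf surface fell. Cuticular wax is built from very long fatty acids by 3-ketoacyl-CoA synthases and turned into alkanes by ECERIFERUM proteins. Features described as 3-ketoacyl-CoA synthases summed to 103 and 101 CPM in cut and uncut rhizome, against 294 and 400 CPM in cut and uncut leaf, and 3 of 12 tested fell. ECERIFERUM features summed to 41.5 and 36.6 CPM in rhizome, against 267 and 246 CPM in leaf, and 3 of 8 tested fell. None in either family rose, and over all features 4.11% fell and 1.02% rose. ECERIFERUM 3 (Unigene6904) had 1.39 and 0 CPM in rhizome, against 78.7 and 73.0 CPM in leaf, and fell by 5.98 ± 1.05 (edgeR adjusted p = 1.81e-06). Over the whole list of lipid transfer, cutin and wax, 10 of 52 tested members fell and 5 rose (median -0.98); with plain totals 3 fell and 8 rose, and without the uncut 4-day pair 7 fell and 3 rose. With TMM and all pairs, 19.2% of this list fell and 9.62% rose, beside 4.11% and 1.02% of all features. The members that rose are 3 lipid-transfer proteins, counting a related inhibitor-family protein, and 2 GDSL esterases, none of them a wax enzyme. Leading them, the lipid-transfer protein CL80.Contig2 had 693 and 252 CPM in rhizome, against 0 and 3.35 CPM in leaf.

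Both named phototropins and a few flavonoid features were called lower. Phototropins steer growth and chloroplast movement toward blue light. Phototropin-1A (Unigene8043) had 15.9 and 0 CPM in cut and uncut rhizome, against 105 and 108 CPM in cut and uncut leaf, and fell by 3.45 ± 0.78 (edgeR adjusted p = 0.000573). Phototropin-2 (Unigene6241) had 15.2 and 13.7 CPM in rhizome, against 112 and 68.9 CPM in leaf, and its call was lost without the cut 4-day pair (edgeR adjusted p = 0.131) and with plain totals (0.206). Of 25 tested members of the clock and light list 4 fell (16%, beside 4.11% of all features) and 0 rose (median -0.96). Chalcone synthase opens the flavonoid route. Its feature CL371.Contig1 had 12.5 and 4.58 CPM in rhizome, against 206 and 89.0 CPM in leaf, and fell by 4.09 ± 0.79 (edgeR adjusted p = 2.36e-05). Both tested chalcone synthase features, which are contigs of 1 cluster, fell. Of 20 tested flavonoid enzymes and glycosyltransferases 4 fell (20%, beside 4.11% of all features) and 0 rose (median -0.78). With plain totals 1 member of each of these lists fell and 0 rose.

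The asarones that scent the rhizome are phenylpropanoids finished by methylation. Of 57 tested features of that route and of phenylpropanoids in general, 4 fell and 1 rose. These are 7.02% and 1.75%, beside 4.11% and 1.02% of all features. The median was -0.29 for the list and -0.21 for all features, and with plain totals 1 fell and 2 rose. A feature like trans-resveratrol di-O-methyltransferase (CL1889.Contig1) had 9.0 and 0 CPM in cut and uncut rhizome, against 114 and 107 CPM in cut and uncut leaf, and fell by 4.19 ± 0.82 (edgeR adjusted p = 3.6e-05). Caffeic acid O-methyltransferase (CL177.Contig6), a lignin enzyme, had 10.4 and 13.7 CPM in rhizome, against 65.1 and 96.4 CPM in leaf; with plain totals its adjusted p by edgeR was 0.204. The member that rose was Unigene2739, putrescine hydroxycinnamoyltransferase, which ties phenolic acids to polyamines, with 87.2 and 192 CPM in rhizome, against 8.81 and 4.69 CPM in leaf. Its log2 change was 4.24 ± 0.78 (edgeR adjusted p = 5.63e-06).

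Lectins were among the features farthest above leaf in rhizome. Of 31 tested members of the storage protein and lectin list 5 rose and 0 fell, although the list's median was -0.39; without the uncut 4-day pair 3 rose, and with plain totals 7 rose. Under TMM with all pairs, 16.1% of the list rose, beside 1.02% of all features. A jacalin-related lectin, a sugar-binding protein, had 61.6 and 192 CPM in cut and uncut rhizome, against 0 and 0 in cut and uncut leaf (Unigene11046). These are 89 and 42 counts in rhizome, at least 30.3-fold and 95.7-fold higher than leaf at the floor of 3 counts. Its edgeR adjusted p was 1.46e-10, but the DESeq2 Wald test gave 0.425. A second one, Unigene9321, added because the family has only 3 features, had 109 and 2255 CPM in rhizome, against 15.6 and 11.4 CPM in leaf. The mannose-specific lectin CL1454.Contig2, of the type that monocots store, had 186 and 137 CPM in rhizome, against 4.75 and 6.02 CPM in leaf.

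Expansins, which loosen the wall without cutting it, summed to more in both rhizome libraries than in leaf. Their 16 features summed to 1369 and 1222 CPM in cut and uncut rhizome, against 322 and 323 CPM in cut and uncut leaf, and 4 of 13 tested rose and 0 fell. Expansin-A1 (Unigene7395) had 161 and 453 CPM in rhizome, against 23.1 and 40.2 CPM in leaf, a rise of 3.15 ± 0.65 (edgeR adjusted p = 0.00011, or 0.0624 without the cut 4-day pair). Expansin-A2 (CL715.Contig2) had 247 and 252 CPM in rhizome, against 51.5 and 52.2 CPM in leaf, so the pairs gave nearly the same ratio. Its adjusted p was 0.01 by edgeR and 0.0501 by DESeq2, and its call was also lost without either month pair. Without the cut 4-day pair its log2 change was 2.25 and the call was lost as well. Expansin-A6 (CL19.Contig2) had 53.3 and 73.2 CPM in rhizome, against 8.81 and 9.37 CPM in leaf, with an edgeR adjusted p of 0.0223, which became 0.154 without the uncut 4-day pair, 0.086 without the cut one and 0.107 by DESeq2. All 3 lay above leaf in both pairs; the calls of Expansin-A1 and Expansin-A2 held without the uncut 4-day pair, and that of Expansin-A6 did not. Xyloglucan endotransglucosylases, which cut and rejoin wall polymers, went the other way or did not pass: of 17 tested 2 fell and 0 rose. Xyloglucan endotransglucosylase 30 (Unigene3935) had 9.69 and 4.58 CPM in rhizome, against 117 and 181 CPM in leaf. Over the whole wall-loosening list 6 of 50 tested members rose (12%, beside 1.02% of all features) and 2 fell (4%, beside 4.11%). The list median was 0.26. By DESeq2 1 rose, with the 4 libraries at 4 days alone 3, and with plain totals 12. Without the uncut 4-day pair the list median was 0.70.

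Structural proteins of the wall differed in both directions, with 10.6% of the list called higher and 6.19% lower, beside 1.02% and 4.11% of all features. Of 113 tested members 12 rose and 7 fell, with a median of 0.00; without the uncut 4-day pair 6 rose, and with plain totals 28 rose and 5 fell. Features described as glycine-rich cell wall proteins summed to 694 and 5243 CPM in cut and uncut rhizome, against 317 and 1431 CPM in cut and uncut leaf, and those described as extensins to 771 and 3797 CPM in rhizome, against 510 and 948 CPM in leaf. Uncut rhizome thus held by far the most of both. Such names rest on repeats of a few amino acids, and several of these features match other proteins in Nr, so single identities are uncertain. Unigene10698 had 49.2 and 146 CPM in rhizome, against 2.03 and 5.35 CPM in leaf, a rise of 4.66 ± 0.82 (edgeR adjusted p = 1.74e-06, or 0.0856 without the cut 4-day pair). Unigene3858 had 36.0 and 805 CPM in rhizome, against 1.36 and 22.1 CPM in leaf, a rise of 5.02 ± 0.75. CL260.Contig2, under the same description, had 3.46 and 0 CPM in rhizome, against 38.0 and 194 CPM in leaf, and fell by 4.45 ± 0.84. The description alone thus does not set the direction. The anchored adhesion protein FLA13, of the fasciclin-like type (Unigene4197), had 1.39 and 0 CPM in rhizome, against 60.3 and 147 CPM in leaf, and fell by 5.90 ± 1.03.

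A few pectin features and a peroxidase were called higher in rhizome. Of 57 tested pectin features 3 rose (5.26%, beside 1.02% of all features) and 0 fell, and the list median was -0.06. Of 19 tested peroxidases and laccases 2 rose (10.5%, beside 1.02% of all features) and 1 fell (5.26%, beside 4.11%). Pectate lyase 5 (Unigene8561), which cuts pectin, had 255 and 965 CPM in cut and uncut rhizome, against 12.9 and 12.1 CPM in cut and uncut leaf. Polygalacturonase inhibitor (Unigene9530), which blocks pectin-cutting enzymes of fungi, had 43.6 and 36.6 CPM in rhizome, against 5.42 and 4.02 CPM in leaf, a rise of 3.06 ± 0.80 (edgeR adjusted p = 0.00508, or 0.1 with the 4 libraries at 4 days alone). Both rhizome libraries gave similar levels of the inhibitor, but uncut rhizome held only 8 counts of it and uncut leaf 6. Pectate lyase differed between the rhizome libraries. Peroxidase 72 (CL1805.Contig1), of a class that cross-links walls and lignin, had 59.5 and 146 CPM in rhizome, against 4.75 and 0.67 CPM in leaf, a rise of 5.08 ± 0.84 (edgeR adjusted p = 3.01e-07). Laccase-16 (Unigene1885), which oxidises lignin precursors, had 2.77 and 0 CPM in rhizome, against 21.7 and 73.6 CPM in leaf, and its call was lost without the uncut 4-day pair (edgeR adjusted p = 0.187) and by DESeq2 (0.0801).

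**Figure D3:**
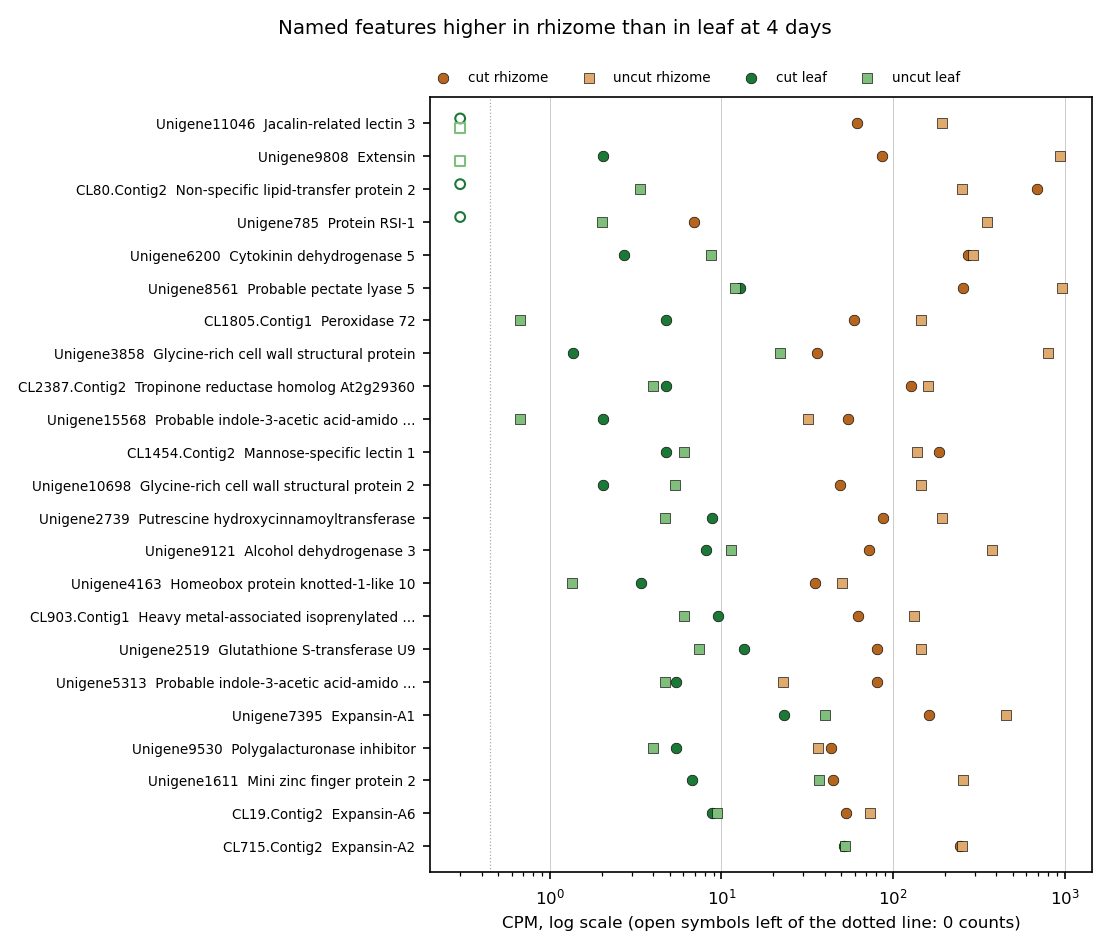
CPM on a log x axis of the 23 named features higher in rhizome, 1 row per feature ordered by log2 change, with brown symbols for rhizome and green for leaf, circles for cut and squares for uncut explants. In every row both brown symbols lie right of both green ones, and uncut rhizome often lies farthest to the right. Open symbols at the left mark 0 counts.

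Hormone genes gave few calls. Of 65 tested auxin features 3 rose (4.62%, beside 1.02% of all features) and 3 fell (4.62%, beside 4.11%), with a median of -0.06. With plain totals 9 rose and 1 fell. GH3 enzymes tie auxin to amino acids. GH3.1 (Unigene15568) had 54.7 and 32.0 CPM in cut and uncut rhizome, against 2.03 and 0.67 CPM in cut and uncut leaf, a rise of 4.93 ± 1.09 (edgeR adjusted p = 0.000404, or 0.06 without the cut 4-day pair). GH3.2 (Unigene5313) had 81.0 and 22.9 CPM in rhizome, against 5.42 and 4.69 CPM in leaf; its adjusted p by edgeR was 0.0162, and it became 0.434 without the cut 4-day pair and 0.124 by DESeq2. Another GH3 feature, Unigene626, described as GH3.10 and named because the family has 4 tested features, had 0.69 and 0 CPM in rhizome, against 49.5 and 17.4 CPM in leaf. The family thus moved both ways, as the 2 rising and 1 falling call show. Cytokinin dehydrogenase 5 (Unigene6200), which degrades cytokinin, had 274 and 293 CPM in rhizome, against 2.71 and 8.70 CPM in leaf. It was the 1 call among 26 tested cytokinin features (3.85%, beside 1.02% of all features that rose). That call was lost without the cut 4-day pair, where its log2 change was 5.04. By edgeR and by DESeq2 0 of 12 tested abscisic acid features passed, beside 5.13% of all features by edgeR. Of these 12, 3 had an unadjusted p under 0.05 in edgeR.

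Regulators differed in a few members. Of 46 tested homeobox and meristem factors 2 rose (4.35%, beside 1.02% of all features) and 4 fell (8.7%, beside 4.11%), with a median of -0.52. With plain totals 7 rose and 0 fell. Some KNOX homeobox factors maintain the stem cells of the shoot tip, and BEL1-like factors are their partners. Of 9 tested knotted-1-like features 2 rose and 2 fell, with a median of -0.42. Knotted-1-like 10 (Unigene4163) had 35.3 and 50.3 CPM in cut and uncut rhizome, against 3.39 and 1.34 CPM in cut and uncut leaf. Knotted-1-like 3 (CL660.Contig5), 1 of the 2 that fell and named after its values had been seen, had 10.4 and 0 CPM in rhizome, against 35.3 and 49.5 CPM in leaf (edgeR adjusted p = 0.0369). The BEL1 homolog Unigene5008 had 0.69 and 18.3 CPM in rhizome, against 42.7 and 89.7 CPM in leaf, and fell by 3.75 ± 0.91 (edgeR adjusted p = 0.00182). Its call was lost by DESeq2 (adjusted p = 0.0598) and with plain totals (0.0667 by edgeR). It was also lost without the cut 4-day pair (log2 change -2.3) and without the cut month pair (-3.7). ANTHOCYANINLESS 2 (Unigene1347), a homeobox factor of the epidermis in Arabidopsis, had 2.77 and 4.58 CPM in rhizome, against 22.4 and 56.9 CPM in leaf, and fell by 3.18 ± 0.92, a call lost by DESeq2 (adjusted p = 0.0738), with the 4 libraries at 4 days alone (0.144 by edgeR), with plain totals (0.167) and without either month pair. Mini zinc finger 2 (Unigene1611), a small protein that binds and holds back zinc-finger homeobox factors in Arabidopsis, had 45.0 and 256 CPM in rhizome, against 6.78 and 36.8 CPM in leaf, a rise of 2.76 ± 0.69. The uncut libraries of both organs were the higher ones for it, and its call was lost without the uncut 4-day pair (edgeR adjusted p = 0.079). Of 27 tested WRKY factors 0 passed by edgeR or DESeq2, beside 5.13% of all features by edgeR. Among the 27, 3 had an unadjusted p under 0.05 in edgeR.

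Metabolism held several further gaps. Alcohol dehydrogenase 3 (Unigene9121), which ends ethanol fermentation, had 72.0 and 375 CPM in cut and uncut rhizome, against 8.14 and 11.4 CPM in cut and uncut leaf, a rise of 4.11 ± 0.73 (edgeR adjusted p = 2.01e-06). A tropinone reductase homolog (CL2387.Contig2), of a family of short-chain dehydrogenases whose substrate here is not known, had 128 and 160 CPM in rhizome, against 4.75 and 4.02 CPM in leaf, a rise of 4.99 ± 0.79. Its rhizome libraries lay close together. Deoxyhypusine synthase (CL316.Contig1), which modifies the translation factor eIF5A, had 2.08 and 0 CPM in rhizome, against 117 and 274 CPM in leaf, and fell by 6.33 ± 0.92 (edgeR adjusted p = 3.79e-09). A terpene enzyme, alpha-terpineol synthase (Unigene3932), had 12.5 and 0 CPM in rhizome, against 156 and 85.7 CPM in leaf. The vacuolar aquaporin TIP1-1 (CL1044.Contig1), a water channel, had 81.0 and 146 CPM in rhizome, against 416 and 788 CPM in leaf, and fell by 2.39 ± 0.61 (edgeR adjusted p = 0.00322), and its call was lost with plain totals (0.154). A cellulose synthase-like H1 feature (Unigene3850) had 2.77 and 22.9 CPM in rhizome, against 73.9 and 304 CPM in leaf, and fell by 4.20 ± 0.76.

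Metal-binding proteins held some of the most abundant transcripts. Heavy metal-associated isoprenylated protein 23 (CL903.Contig1) had 62.3 and 133 CPM in cut and uncut rhizome, against 9.49 and 6.02 CPM in cut and uncut leaf, a rise of 3.52 ± 0.70. A relative, protein 7 (Unigene8075), had 9.0 and 36.6 CPM in rhizome, against 69.8 and 1784 CPM in leaf, and fell by 4.24 ± 0.70; Nr gives it another name. Within that family the direction thus differed by member. On a scale of counts per length, set to the same total in each library over nuclear features without Unigene19161, described features were ranked by the lower of an organ's 2 libraries. Metallothionein type 2 (CL1414.Contig2), a small metal chelator, came first in rhizome, at 14500 and 20600 in rhizome, against 2940 and 10100 in leaf. Defensin-like protein 5 (CL1025.Contig2) came next by that rank, at 4810 and 6930 in rhizome, against 1300 and 4440 in leaf, although metallothionein type 3 (CL851.Contig1) lay above it in uncut rhizome, at 3500 and 12400 in rhizome, against 2230 and 12200 in leaf. Rubisco small chain feature Unigene10189 came first in leaf by that rank, at 504 and 331 in rhizome, against 7500 and 9520 in leaf. Other features were above it in each leaf library taken alone, such as Unigene10188, at 8410 in cut leaf, and Unigene10191, at 17100 in uncut leaf.

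Storage and growth lists otherwise gave few or no calls, which does not show that the organs were alike in them. Of 37 tested starch features 2 fell (5.41%) and 0 rose, and of 38 tested sucrose and sugar transport features 3 fell (7.89%) and 0 rose, beside 4.11% of all features that fell; with plain totals 0 fell and 1 rose in each list. Granule-bound starch synthase 2 (CL88.Contig2), which builds amylose, had 12.5 and 4.58 CPM in cut and uncut rhizome, against 52.2 and 58.9 CPM in cut and uncut leaf, with an edgeR adjusted p of 0.0395, a call lost without the uncut 4-day pair (0.105) and by DESeq2 (0.118). Over all features so described the sums were 933 and 229 CPM in rhizome, against 532 and 308 CPM in leaf. Sucrose synthase, a marker of storage organs, summed to 2300 and 741 CPM in rhizome, against 2225 and 435 CPM in leaf, and 0 of 4 tested passed. Cytosolic ribosomal proteins, histones with replication features, and cell cycle features gave 0 calls by edgeR and by DESeq2 of 301, 31 and 50 tested, with 9, 4 and 0 at an unadjusted p under 0.05 in edgeR. Their medians were 0.30, -0.03 and -0.12, and with plain totals 30, 1 and 1 rose. Without the cut 4-day pair 19 cytosolic ribosomal proteins rose and 6 fell, and their median log2 ratio was -0.12 in the cut pair and 0.75 in the uncut pair. Of 10 tested root markers 0 passed by edgeR or DESeq2, and 2 had an unadjusted p under 0.05 in edgeR. The features for SHORT-ROOT and SCARECROW, which set up the root's inner layers, held 2 and 0 counts in rhizome, against 9 and 13 in leaf. Retrotransposon features summed to 1954 and 32.0 CPM in cut and uncut rhizome, against 2209 and 49.5 CPM in cut and uncut leaf, so both cut libraries were high and both uncut ones low. Between the organs 0 of 13 tested passed by edgeR or DESeq2, and 1 had an unadjusted p under 0.05 in edgeR.

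**Figure D4:**
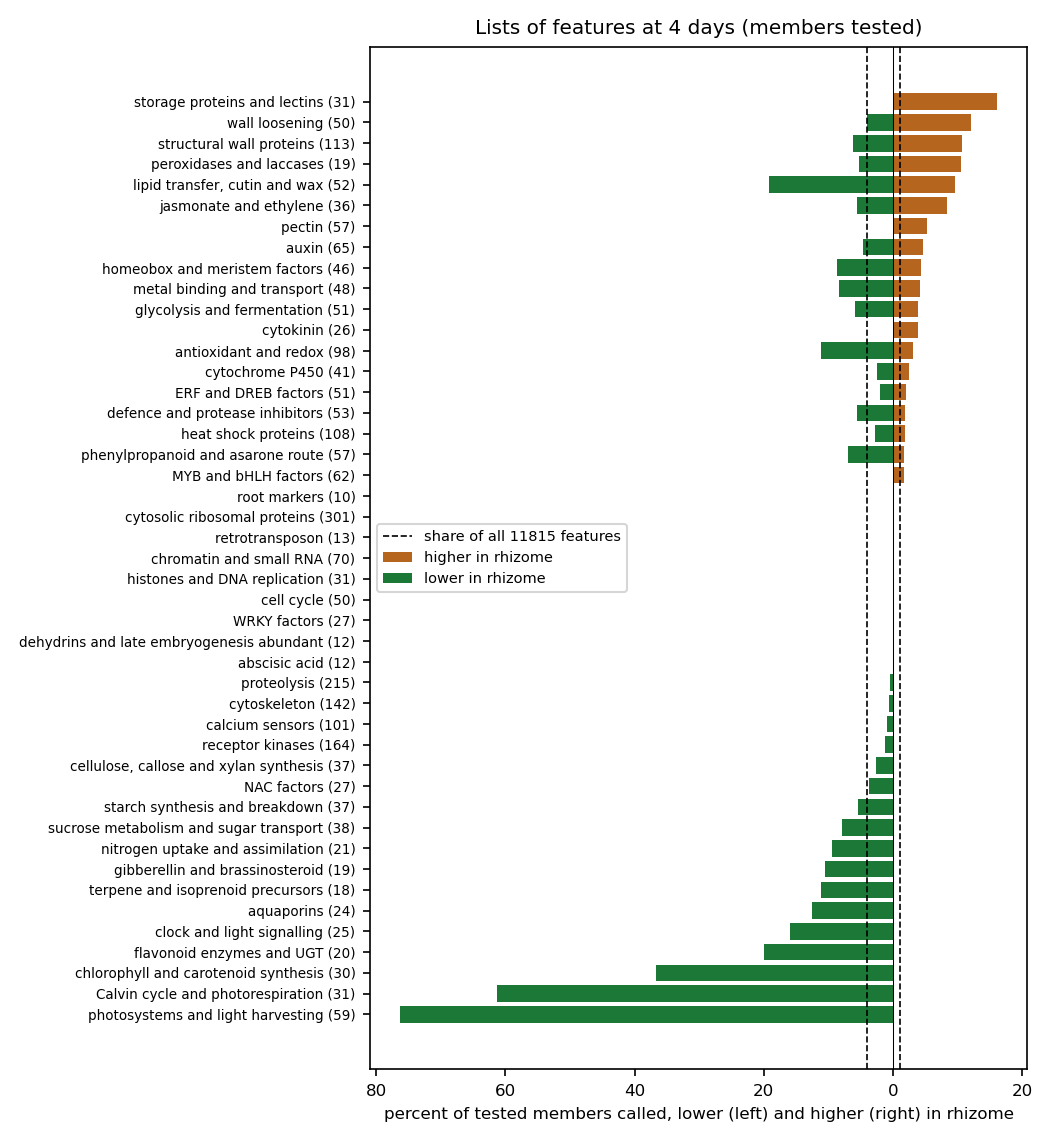
Percent of tested members called by edgeR in each list with at least 10 tested members, higher in rhizome to the right and lower to the left, with the number tested after the name. Dashed lines mark 1.02% and 4.11%, the shares over all 11815 features. The 3 photosynthesis lists reach farthest to the left, and lectins, wall loosening and structural wall proteins reach farthest to the right.

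Of the 606 calls, 219 belong to a list, 311 have a description but no list, and 76 have no description. Among the features past 4-fold in both pairs, 7 of 43 higher and 19 of 266 lower have none.

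The same comparison at a month, on other libraries, gave 1484 calls. Of the 606 called at 4 days, 389 were called there in the same direction and 2 in the opposite one. The difference between the times was tested in the same fit: 102 of 11815 features (0.863%) passed, 37 (0.313%) with a more positive value at 4 days and 65 (0.55%) with a more negative one, and 894 had an unadjusted p under 0.05. That count was 0 without the pairing, 3 without the uncut month pair and 23 by DESeq2. The photosystem list had a median log2 change of -3.51 at a month and the Calvin cycle list one of -3.08. Alcohol dehydrogenase 3 was the named feature higher in rhizome that differed between the times. At a month it had 15.8 and 19.5 CPM in cut and uncut rhizome, against 13.9 and 46.2 CPM in cut and uncut leaf, so the organs overlapped. The difference between the times was 4.73 ± 1.0 on the log2 scale (edgeR adjusted p = 0.00128).

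Other named features differed between the times on the lower side. Formin-like protein 20 (Unigene122), which nucleates actin filaments, had 75.5 and 77.8 CPM in cut and uncut rhizome at 4 days, against 391 and 503 CPM in cut and uncut leaf. At a month it had 104 and 82.8 CPM in rhizome, against 49.7 and 0.66 CPM in leaf, so its rhizome level stayed in a narrow range while leaf was high at 4 days and low at a month (difference -5.80 ± 0.97, edgeR adjusted p = 4.48e-06). A lysine-rich arabinogalactan protein (CL403.Contig2) had 31.8 and 50.3 CPM in rhizome at 4 days, against 249 and 533 CPM in leaf, and its difference between the times was -4.76 ± 1.01 (edgeR adjusted p = 0.00161). The 4-day call of formin-like protein 20 was lost by edgeR without the uncut 4-day pair (log2 change -2.41, adjusted p = 1.0) and without the cut one (-2.71, adjusted p = 0.709). That of the arabinogalactan protein was lost likewise (-3.0, adjusted p = 1.0, and -3.42, adjusted p = 0.694). Chalcone synthase CL371.Contig1, described above at 4 days, had 82.3 and 19.5 CPM in rhizome at a month, against 91.4 and 20.6 CPM in leaf, where rhizome and leaf of each pair lay close together.

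**Figure D5:**
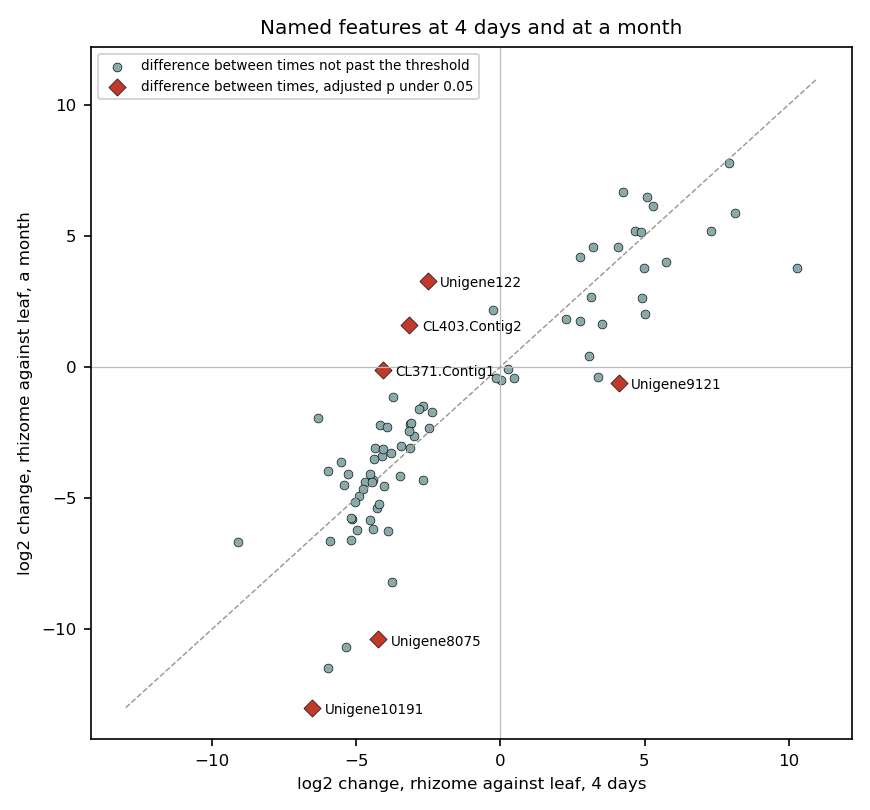
Each point is 1 named feature, with its log2 change of rhizome against leaf at 4 days on the x axis and at a month on the y axis, and a dashed line where both are equal. Red diamonds are the 6 features whose difference between the times passed the threshold by edgeR. Formin-like protein 20 (Unigene122) and the arabinogalactan protein (CL403.Contig2) lie below 0 at 4 days and above 0 at a month.

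A few features moved opposite ways in the 2 pairs. By size, 5 of 4504 (0.111%) were at least 4-fold higher in rhizome in one pair and at least 4-fold lower in the other, with no test of that difference. Of these, 4 were higher in rhizome of cut explants and lower in rhizome of uncut ones. The transcription factor GHD7 (Unigene9087), a flowering repressor in rice, had 88.6 CPM in cut rhizome against 20.3 CPM in cut leaf, and 4.58 CPM in uncut rhizome against 55.6 CPM in uncut leaf. Ferredoxin-nitrite reductase (CL1914.Contig1), which reduces nitrite in the plastid, had 26.3 CPM in cut rhizome against 6.10 CPM in cut leaf, and 4.58 CPM in uncut rhizome against 73.6 CPM in uncut leaf. All 4 rest on 1 to 3 counts in uncut rhizome, and with plain totals none of the 5 was past 4-fold both ways.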

How the data were processed

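RNA-seq of 4 libraries at 4 days was analysed, with the 4 at a month in the same fit. The authors' deposited tables hold an expected count per assembled feature, made with Bowtie2 and RSEM (no versions given) per the submitters' processing notes; the FPKM was not used. Whether reads were counted by strand is not stated, and close paralogues share reads. Feature length in bases, a further deposited value, served for levels per length. Counts were rounded, features absent from a library's table were set to 0, and descriptions came from SwissProt, then Nr.

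edgeR 4.0.16 in R 4.3.3 (filterByExpr, TMM, robust quasi-likelihood) was fitted to all 8 libraries with a block for 4 pairs and a tissue effect at each time, leaving 2 residual degrees of freedom; the month pairs add only to the spread, so a very small p draws on all features and not on the 2 pairs of 1 feature. SE is the log2 change over the square root of F. The size rule counts the lower library as at least 3 and asks for at least 50 counts in 1 library. Alternatives were DESeq2 1.42.0, other scalings, filters and left-out pairs. Code was tested on simulated data for this comparison. That test recovered 8.6% of 93 features simulated at 4-fold and 26.6% of 94 simulated at 8-fold, and 3 unchanged features were called. Most changes of that size were thus missed, so a list with few or no calls does not show that the organs were alike in it. Members and 45 lists were chosen with earlier results of these data known, list wording was corrected after results had been seen, and families were counted after values had been seen. Named: 12 features per direction by the smaller pair ratio, passing over features already singled out in earlier results of these data (some are given where a passage needs them), 3 per list and direction past 4-fold, and 5 that moved opposite ways; a few more are marked.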

Additional observations from a re-analysis of the deposited data

Results flagged for a closer look

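For 6 named features the difference between rhizome and leaf at 4 days differed from that at a month, by edgeR's test of that difference in the same fit. The log2 difference, 4 days minus a month, was 4.73 for alcohol dehydrogenase 3 (Unigene9121), 6.45 for a Rubisco small chain feature (Unigene10191) and 6.19 for heavy metal-associated protein 7 (Unigene8075). It was -4.76 for a lysine-rich arabinogalactan protein (CL403.Contig2), -3.97 for chalcone synthase 3 (CL371.Contig1) and -5.80 for formin-like protein 20 (Unigene122). For Unigene10191 both rhizome libraries at a month held 0 counts, so its value there depends on the prior count of the fit and is no bound. Rhizome depth at a month is also below that of leaf, and its part in these values was not tested.

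For 5 features the 2 pairs at 4 days went opposite ways, which was not tested. The log2 ratio of rhizome to leaf was 2.15 in the cut pair and -2.13 in the uncut pair for cytosolic fructose-1,6-bisphosphatase (CL1973.Contig1), 2.11 and -2.42 for ferredoxin-nitrite reductase (CL1914.Contig1), 2.12 and -2.02 for GHD7 (Unigene9087) and 2.00 and -2.02 for nucleoredoxin 1 (CL2519.Contig1). It was -2.43 in the cut pair and 2.04 in the uncut pair for DRT100 (Unigene7095). The first 4 hold 1 to 3 counts in uncut rhizome.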

How the results depend on the processing

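The count of 606 features between the organs was 329 by the DESeq2 Wald test, 318 with the 4 libraries at 4 days alone and 215 to 1060 with 1 pair left out, and lay within 1.5 times of it under every other setting that kept the pairing. The numbers of the labels pair nothing here, and without the replicate block, where the pairs of cut and uncut explants are ignored, it was 40. The 102 features that differed between the times became 23 by DESeq2, 54 with no count filter, 3 to 242 with 1 pair left out and 0 without the pairing. The 309 features of the size rule became 878 at 2-fold, 122 at 8-fold and 155 with the lower library counted as at least 10, and 570 to 875 with 1 pair read by itself. Without Unigene19161 the nuclear share became 5.85% in cut rhizome and 0.999% in uncut rhizome, 5.45% in cut leaf and 8.12% in uncut leaf. Of 75 features named and called, 75 were still called with DESeq2 size factors, 60 by DESeq2, 66 without the uncut 4-day pair, 62 without the cut one, 61 and 59 without the uncut and the cut month pair, 64 with the 4 libraries at 4 days alone, 64 with plain totals and 16 without the block. The 5 features that moved opposite ways changed sign: CL1973.Contig1 ran from -2.72 to 3.52 with 1 pair left out and was at -0.034 with no count filter and -1.74 without the block; CL1914.Contig1 ran from -3.99 to 2.05 and was at 0.88 with plain totals; Unigene9087 ran from -3.59 to 2.08 and was at -0.13 by DESeq2; CL2519.Contig1 ran from -2.02 to 1.96; and Unigene7095 ran from -2.46 to 2.02 and was at 0.012 without the block and 0.80 with plain totals. The cause was not tested. Fits with plain totals, list counts under each setting and single pairs were added after seeing the data. The 146449 counts of uncut rhizome limit what can be seen there: 232 of the 486 lower calls have 0 counts in it.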
